A study of Mus musculus with 12 samples.

Results

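Immediate early genes are switched on within minutes of a signal, without new protein synthesis, and the proteins of the Jun and Fos families pair to form the transcription factor AP-1. The 10 genes described here are Jun (gene ID 16476), Junb (16477), Jund (16478), Fos (14281), Fosb (14282), Fosl1 (14283), Fosl2 (14284), Egr1 (13653), Nr4a1 (15370) and Sgk1 (20393). They were taken by symbol from the 14851 genes listed for 562 cells, and all 10 were found. These cells are an immortalized mouse line grown from a cutaneous vascular tumor after tamoxifen-induced, Scl-Cre-driven loss of Tsc1, so every group lacks Tsc1, the controls included. Control cells, labelled wildtype, carried an sgRNA against EGFP. The Fip200 KO, Atg5 KO and Atg7 KO lines carried CRISPR sgRNAs, 2 for Fip200 and 1 each for Atg5 and Atg7, and were kept under puromycin for a week. All were labelled C57BL/6, were cultured in one endothelial medium with serum and heparin and received no further treatment. Each group had 3 libraries, 12 in all, and the same 3 control libraries stand in every comparison. Atg5 KO replicates 1 and 2 were closer to each other than any other pair within a group, with values given beside the library names. The paper calls the samples independent replicates, and its reporting form gives biological replication for experiments in general. Separate cultures are not described for these libraries, so p-values here measure the spread between these samples.

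AP-1 is a dimer of 2 basic leucine zipper proteins. Jun proteins pair with each other or with a Fos protein, whereas Fos proteins need a partner, and the pair binds the DNA element TGACTCA. Fos, Fosb, Junb, Egr1 and Nr4a1 respond within minutes to growth factors, serum and stress through MAP kinases acting on the factors SRF and ELK and through CREB, while Jund RNA is held at a steadier level in most cells. Sgk1 encodes a serum and glucocorticoid induced kinase that is activated downstream of mTORC2.

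The promoters are shown for 5 members, to set members called lower in at least 1 KO group (Junb, Nr4a1 and Sgk1) beside members called in none (Fos and Jun). Jund, also called lower, is not printed because its window held none of the motifs searched. RefSeq promoter windows of build GRCm38.p6 matched 8 of the 10 members, with 13 windows in all, each of 300 bases. The 250 bases before the annotated start are printed 5′ to 3′ on the gene's strand. Capitals mark GGGCGG (the GC box bound by Sp factors), TATAAA, and TGACG (the core of the CREB and ATF element), each on either strand, so that CCGCCC and CGTCA are also in capitals. The windows are Junb at chr8:84978749-84978998 (minus strand), Nr4a1 at chr15:101266596-101266845 (plus), Sgk1 at chr10:21994416-21994665 (plus, 1 of its 6 windows), Fos at chr12:85473640-85473889 (plus) and Jun at chr4:95052223-95052472 (minus).
Junb: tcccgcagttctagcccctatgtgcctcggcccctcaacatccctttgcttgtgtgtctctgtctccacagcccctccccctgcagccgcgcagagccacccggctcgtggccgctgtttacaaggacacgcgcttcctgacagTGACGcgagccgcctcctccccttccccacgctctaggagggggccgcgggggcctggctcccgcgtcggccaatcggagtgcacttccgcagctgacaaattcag
Nr4a1: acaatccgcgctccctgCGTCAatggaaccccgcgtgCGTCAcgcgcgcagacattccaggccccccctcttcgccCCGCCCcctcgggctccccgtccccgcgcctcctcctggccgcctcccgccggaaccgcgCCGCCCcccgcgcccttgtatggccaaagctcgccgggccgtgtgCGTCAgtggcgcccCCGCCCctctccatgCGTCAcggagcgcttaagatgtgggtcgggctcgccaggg
Sgk1: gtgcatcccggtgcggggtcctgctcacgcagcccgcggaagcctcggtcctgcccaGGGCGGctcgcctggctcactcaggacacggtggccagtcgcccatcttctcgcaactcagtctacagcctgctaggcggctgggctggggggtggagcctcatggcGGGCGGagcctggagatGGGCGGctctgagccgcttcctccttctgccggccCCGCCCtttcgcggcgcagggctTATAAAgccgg
Fos: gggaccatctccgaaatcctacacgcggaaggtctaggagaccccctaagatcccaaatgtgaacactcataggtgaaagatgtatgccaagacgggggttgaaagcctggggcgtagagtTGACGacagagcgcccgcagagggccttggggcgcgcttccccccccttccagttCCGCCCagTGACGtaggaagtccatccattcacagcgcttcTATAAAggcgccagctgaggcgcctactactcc
Jun: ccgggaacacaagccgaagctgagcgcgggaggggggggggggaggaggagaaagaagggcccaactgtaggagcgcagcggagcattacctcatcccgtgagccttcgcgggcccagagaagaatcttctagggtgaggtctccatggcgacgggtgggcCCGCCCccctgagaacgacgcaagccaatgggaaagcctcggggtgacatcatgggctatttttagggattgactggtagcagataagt
Nr4a1 held 4 copies of TGACG, each on the opposite strand and within the letters TGCGTCA as printed, and 3 GC boxes. TGCGTCA occurred in 2.12% of all 32851 promoter windows and, among members, in Nr4a1 and Fosb. TGACG was found in 5 of 13 windows, against 20.8% of all, and both motifs were chosen after the sequences were seen. Fos held 1 TATAAA, starting 33 bases before its start, and 2 copies of TGACG. The CArG box bound by SRF (1.63% of all windows), the palindrome TGACGTCA (1.79%) and the AP-1 element TGACTCA or its reverse complement TGAGTCA (5.2%) were in 0 of the 13 windows, which says only that these letters were not there. GGGCGG was in 7 of 13 windows against 35.7% of all, and TATAAA in 4 of 13 against 13.6%. In Junb, TATAAA began at the annotated start itself, past the bases printed. Jun held 1 GC box and no TATAAA or TGACG. The printed Sgk1 window held the most motifs of its 6, and each other Sgk1 window held at most 1.

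The libraries held 17266926 to 23629730 reads on the listed genes, and every member had at least 71 reads in every library. The targeted genes were read first. Atg7 RNA, in RPKM (reads scaled by gene length and library size), was 2.64 to 8.34 for Atg7 KO cells against 18.4 to 25.0 in control. Rb1cc1, which encodes FIP200, was 2.06 to 6.84 for Fip200 KO against 6.43 to 8.27 in control cells, and Atg5 was 8.53 to 15.5 for Atg5 KO against 10.6 to 14.2. An edited exon need not lower its RNA, so overlapping levels check neither label. The cells are labelled as lymphatic endothelial cells. Pecam1, Cdh5, Lyve1, Flt4 and Pdpn were above 31 RPKM in every library, but Prox1, the defining lymphatic factor, was 0.0366 to 5.79 RPKM. The summed level of 14 endothelial markers was lowest in control replicate 2, at 1396 RPKM, and 1871 to 3070 in KO libraries, and 3 epithelial markers summed to at most 10.8. Of 13 tested endothelial markers, Flt1 was called lower with loss of Fip200 and of Atg7, Lyve1 higher with loss of Atg5 and of Atg7, and Cdh5 and Kdr higher with loss of Atg5. Over all tested genes 1.64%, 6.94% and 6.81% were called lower and 0.347%, 4.31% and 3.29% higher (Fip200, Atg5 and Atg7 in that order), by the rule given with the comparisons. Control libraries differed among themselves in fibroblast RNA. The summed level of 11 fibroblast and mural markers was 4.02 RPKM in control replicate 1, 214 in replicate 2 and 44.0 in replicate 3, and 2.64 to 37.8 in the KO libraries. Control replicate 2 had 143 RPKM of Col3a1, 56.9 of Dcn and 9.02 of Pdgfra, while Rgs5 was at most 0.01 everywhere. Only 3 of the 11 were tested in each comparison. Acta2 was called higher in Atg5 KO cells (mean 1.39 RPKM in control and 4.13 there) and Col1a2 higher in Atg7 KO cells (0.015 and 1.13 RPKM). Cd68, also made by other cells with many lysosomes, was 34.4 to 91.7 RPKM in control, 15.9 to 263 for Fip200 KO, 9.94 to 11.6 for Atg5 KO and 6.95 to 27.1 for Atg7 KO libraries, and was called lower with loss of Atg5 and of Atg7. Its highest value, in Fip200 KO replicate 1, was above every control library. Lyz2 was 2.88 to 26.4 RPKM in control and averaged 16.2 there, against means of 1.88 for Fip200 KO, 4.63 for Atg5 KO and 2.42 for Atg7 KO cells. Its log2 fold changes of −2.63, −1.25 and −2.93 did not pass limma's test. The other leukocyte markers were at most 0.41 RPKM. The part that fibroblast or leukocyte RNA has in the results below was not tested. Changes of Jund, Nr4a1 and Sgk1 without control replicate 2 are given with these genes, and genes of the other lists were not refitted without it. In bulk RNA, fewer cells of a type and less RNA per cell cannot be told apart.

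Sgk1 and the Jun genes were the most abundant members in control cells. In control cells the mean level was 212 RPKM for Sgk1, 160 for Jund, 134 for Junb, 77.6 for Jun, 70.6 for Fos, 61.9 for Fosl2, 41.2 for Egr1, 36.8 for Nr4a1, 16.1 for Fosb and 9.64 for Fosl1. Neighbours in that order overlapped in their libraries at each step. Sgk1 was first in all 4 groups, whereas Nr4a1 moved from rank 8 in control to rank 9 for Fip200 KO and rank 10 for Atg5 KO and Atg7 KO cells. Spread between control libraries separated the members too. The highest control library exceeded the lowest 8.98 times for Fosb, 7.71 times for Fos, 7.36 times for Egr1, 4.12 times for Nr4a1 and 3.88 times for Junb, but 1.39 times for Sgk1 and 1.57 times for Fosl2.

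**Figure D1:**
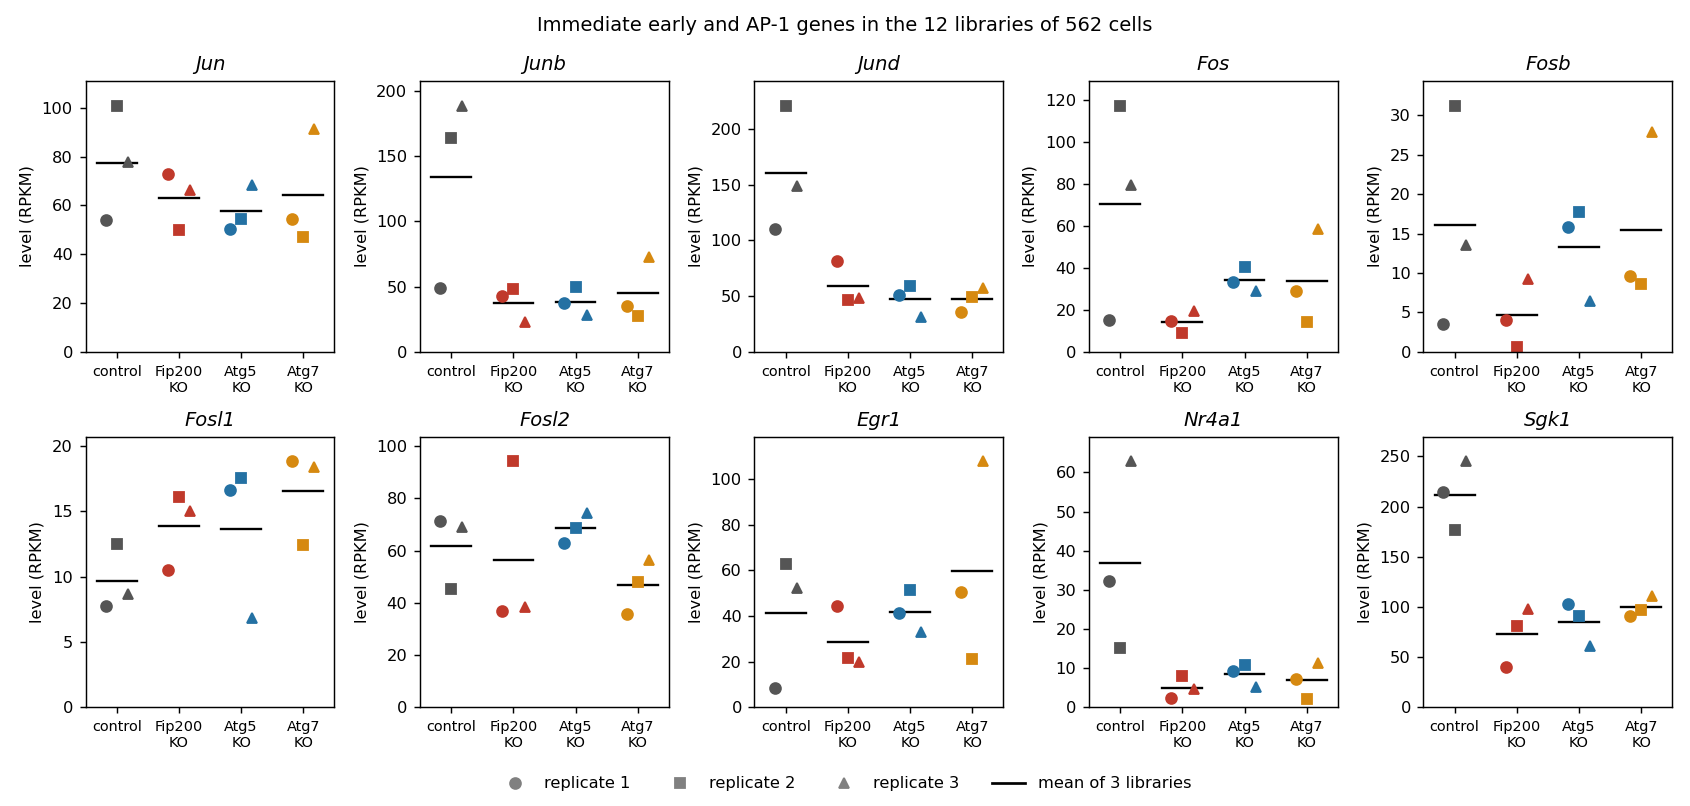
Level in RPKM (linear axis from 0) of each of the 10 genes in the 12 libraries, by group, with symbols for the replicate number and a line at the mean of 3 libraries. Jund, Nr4a1 and Sgk1 in all 9 KO libraries sit below the lowest control library, while Fos, Fosb and Egr1 have 1 low and 2 high control libraries.

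Each KO was compared with control to ask which members respond to loss of an autophagy gene. A gene was called where limma's Benjamini-Hochberg adjusted p was at most 0.1 and the log2 fold change, on log2 of RPKM plus 0.5, was at least 1 in size. All 10 members passed the filter on low values in every comparison. In Atg5 KO cells 4 of 10 members were called lower (Junb, Jund, Nr4a1 and Sgk1), against 6.94% of 11833 tested genes, and 0 higher, against 4.31%. In Atg7 KO cells 3 of 10 were called lower (Jund, Nr4a1 and Sgk1), against 6.81% of 11784 genes, and 0 higher, against 3.29%. In Fip200 KO cells 0 of 10 were called by limma, against 1.64% of 11803 genes called lower and 0.347% called higher. There, 5 members had an unadjusted p under 0.05, and Nr4a1 and Sgk1 stood just outside the threshold, at an adjusted p from limma of 0.101 each. The median log2 fold change of the 10 members was −1.52 for Fip200 KO, −0.50 for Atg5 KO and −0.62 for Atg7 KO cells, beside 0.02, 0.06 and −0.01 over all tested genes. Junb, Nr4a1 and Sgk1 belong to a gene list that the study chose on these same samples, so their direction is no independent evidence. In that list the study's own test on counts passed each of them as lower in every KO group, Fip200 KO included.

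**Figure D2:**
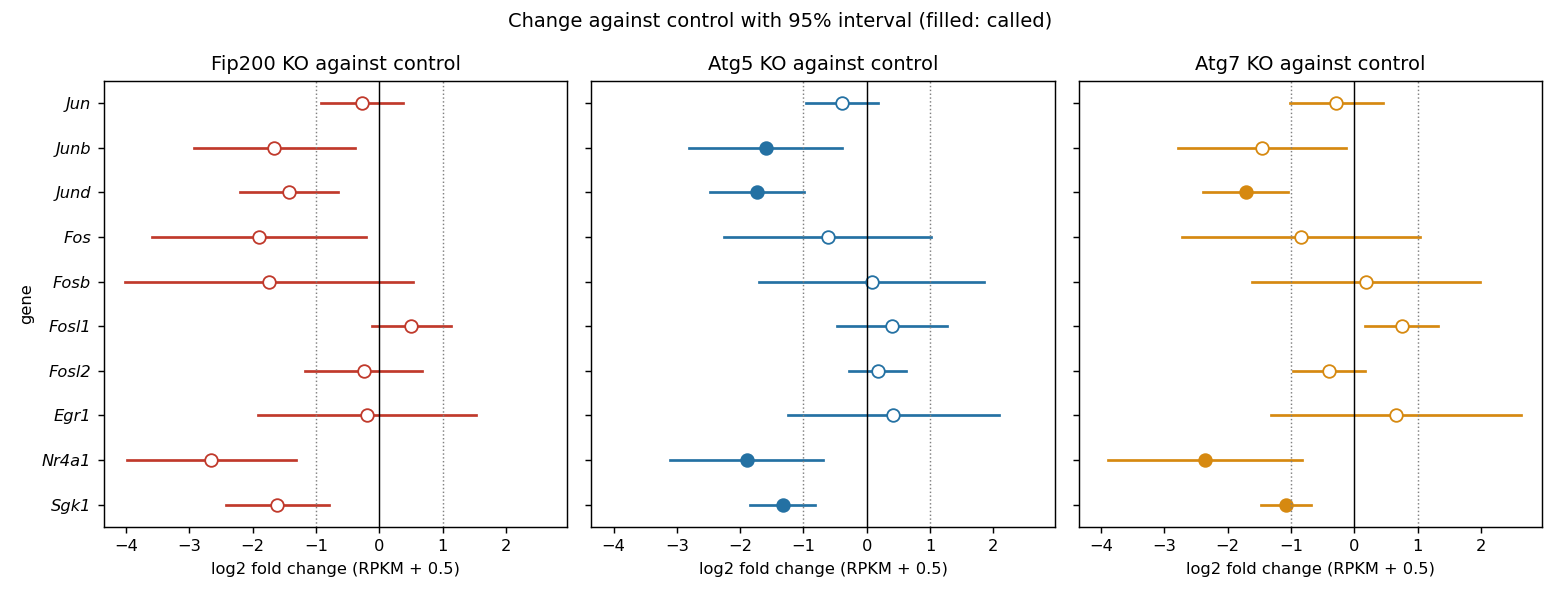
Log2 fold change (RPKM plus 0.5) of each gene against control, with 1 panel for each KO, 95% intervals from limma and filled points for called genes. Jund, Nr4a1 and Sgk1 lie below −1 in all 3 panels, as does Junb, and Fosb for Fip200 KO cells has the widest interval, from −4.02 to 0.53.

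Among the Jun genes, Jund passed the test as lower with loss of Atg5 and of Atg7 and Junb with loss of Atg5, while Jun, the founding member of the family, did not pass the test. Jund had 110, 221 and 149 RPKM in the control libraries, 81.9, 46.2 and 48.4 for Fip200 KO, 51.2, 59.0 and 31.6 for Atg5 KO and 35.6, 49.4 and 56.9 for Atg7 KO cells. All 9 KO libraries were below the lowest control library. The log2 fold change was −1.74 for Atg5 KO (standard error, SE, 0.313, limma adjusted p = 0.0108), −1.72 for Atg7 KO (SE 0.288, adjusted p = 0.0177) and −1.43 for Fip200 KO cells (SE 0.331, adjusted p = 0.117). Jund was the 1 member still called in Atg7 KO cells without control replicate 3. Without control replicate 2 its change was −1.48 for Atg5 KO (limma adjusted p = 0.0241) and −1.46 for Atg7 KO cells (adjusted p = 0.0539). Its call in Atg5 KO cells held under every alternative run, with adjusted p from 0.0101 to 0.0387, whereas in Atg7 KO cells the range was 0.0117 to 0.516. In Fip200 KO cells its adjusted p ranged from 0.0374 to 0.675 over the alternatives.

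Junb, which often restrains the activity of Jun, had 48.7 RPKM in control replicate 1 but 164 and 189 in replicates 2 and 3. It had 42.6, 48.0 and 22.8 RPKM for Fip200 KO, 37.3, 50.0 and 28.5 for Atg5 KO and 35.5, 27.6 and 72.5 for Atg7 KO cells. Control replicate 1 was thus exceeded by 2 of the 9 KO libraries, and control replicates 2 and 3 by none. The log2 fold change was −1.60 for Atg5 KO (SE 0.509, limma adjusted p = 0.0547), −1.46 for Atg7 KO (adjusted p = 0.121) and −1.66 for Fip200 KO cells (adjusted p = 0.209). The Atg5 KO call was lost without control replicate 2, control replicate 3, Atg5 KO replicate 1 or Atg5 KO replicate 3, where its adjusted p was 0.129 to 0.153. Without control replicate 1, Junb was called in all 3 comparisons.

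Jun levels overlapped between control and each KO group. It had 54.0, 101 and 77.9 RPKM in control, 73.0, 50.0 and 66.3 for Fip200 KO, 50.2, 54.6 and 68.2 for Atg5 KO and 54.4, 47.2 and 91.4 for Atg7 KO cells. Its log2 fold change was −0.27 for Fip200 KO (95% interval −0.92 to 0.38), −0.39 for Atg5 KO (−0.95 to 0.17) and −0.28 for Atg7 KO cells (−1.02 to 0.45). A change of 1 log2 unit down lay inside the Atg7 KO interval.

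Of the Fos genes, Fos and Fosb, the classical inducible members, varied most between the control libraries. Fos had 15.2, 117 and 79.3 RPKM in control, 14.7, 8.80 and 19.6 for Fip200 KO, 33.4, 40.5 and 28.9 for Atg5 KO and 29.1, 14.1 and 58.4 for Atg7 KO cells. Control replicate 1 was inside the range of the Fip200 KO libraries, and the other control libraries were above every KO library. The log2 fold change was −1.90 for Fip200 KO (SE 0.721, limma adjusted p = 0.267), −0.62 for Atg5 KO and −0.85 for Atg7 KO cells. Without control replicate 1, Fos was called lower in Fip200 KO (log2 fold change −2.77, limma adjusted p = 0.0760) and Atg5 KO cells (−1.49, adjusted p = 0.00961). Over all alternatives its adjusted p ran from 0.0760 to 0.971 for Fip200 KO and from 0.00961 to 0.970 for Atg5 KO cells.

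Fosb had 3.48, 31.2 and 13.6 RPKM in control, 4.08, 0.565 and 9.23 for Fip200 KO, 15.9, 17.7 and 6.52 for Atg5 KO and 9.69, 8.64 and 27.9 for Atg7 KO cells. Each KO group overlapped with control. The log2 fold change was −1.74 for Fip200 KO (SE 0.969, limma adjusted p = 0.413), 0.08 for Atg5 KO and 0.19 for Atg7 KO cells, and the sign of the latter pair turned without control replicate 1, to −0.72 and −0.61. Fosl1 and Fosl2, which lack the strong activation domain of Fos, were not called in any KO group. Fosl1 had 7.76, 12.5 and 8.70 RPKM in control, 10.5, 16.1 and 15.0 for Fip200 KO, 16.6, 17.5 and 6.84 for Atg5 KO and 18.8, 12.4 and 18.3 for Atg7 KO cells. It was the only member with a log2 fold change above 0 against control in every KO group, at 0.51, 0.40 and 0.75. In Atg7 KO cells its limma adjusted p was 0.0811, with a change short of the fold threshold. Over all alternatives that change ran from 0.62 to 1.88, with limma adjusted p from 0.0351 to 0.224. Ccdc85b overlaps Fosl1 in the RefSeq annotation, and the counting was not stated to use strand, so reads of both genes may be mixed. Fosl2 had 71.2, 45.4 and 69.1 RPKM in control, 36.8, 94.2 and 38.5 for Fip200 KO, 62.8, 68.7 and 74.4 for Atg5 KO and 35.6, 48.0 and 56.6 for Atg7 KO cells. None of its 3 log2 fold changes (−0.24, 0.17 and −0.40) passed limma's test.

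Egr1, a zinc finger factor induced by the same signals as Fos, had 8.53, 62.8 and 52.2 RPKM in control, 44.4, 21.6 and 19.7 for Fip200 KO, 41.1, 51.4 and 32.8 for Atg5 KO and 50.5, 21.3 and 108 for Atg7 KO cells. The lowest value of the 12 was control replicate 1 and the highest Atg7 KO replicate 3. Its log2 fold change was −0.20 for Fip200 KO (95% interval −1.92 to 1.53), 0.42 for Atg5 KO (−1.24 to 2.08) and 0.67 for Atg7 KO cells (−1.31 to 2.64). Intervals of that width would cover changes of over 2-fold either way.

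Nr4a1, an orphan nuclear receptor with inducible expression in endothelium, had the lowest log2 fold change of the 10 in every KO group. It had 32.2, 15.2 and 62.9 RPKM in control, 2.49, 8.14 and 4.58 for Fip200 KO, 9.35, 10.9 and 5.12 for Atg5 KO and 7.16, 2.19 and 11.3 for Atg7 KO cells. Every KO library was below every control library. The fitted level was 3.72-fold lower in Atg5 KO (log2 fold change −1.90, SE 0.511, limma adjusted p = 0.0338) and 5.11-fold lower in Atg7 KO cells (−2.35, SE 0.653, adjusted p = 0.0556). For Fip200 KO the log2 fold change was −2.65 (SE 0.570) and the limma adjusted p, at 0.101, missed the threshold. Without control replicate 2 the change was −2.41 for Atg5 KO (limma adjusted p = 0.0177), −2.86 for Atg7 KO (adjusted p = 0.0765) and −3.16 for Fip200 KO cells (adjusted p = 0.216). Of the fits that left out 1 library, the Atg7 KO call was lost without control replicate 1, control replicate 3 or Atg7 KO replicate 1, at adjusted p of 0.108, 0.168 and 0.127. Over all alternatives the Atg7 KO change ran from −2.86 to −1.42, with limma adjusted p from 0.0317 to 0.751. For Atg5 KO cells the adjusted p ran from 0.0177 to 0.294. Unlike Fos and Egr1, Nr4a1 was not low in control replicate 1.

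Sgk1, the kinase, was the member with the closest control libraries. It had 214, 177 and 245 RPKM in control, 40.0, 81.2 and 97.9 for Fip200 KO, 103, 91.5 and 61.6 for Atg5 KO and 91.2, 96.8 and 111 for Atg7 KO cells. The highest KO library, at 111 RPKM, was below the lowest control library, at 177. Its log2 fold change was −1.61 for Fip200 KO (SE 0.346, limma adjusted p = 0.101), −1.33 for Atg5 KO (SE 0.217, adjusted p = 0.00848) and −1.08 for Atg7 KO cells (SE 0.170, adjusted p = 0.0153). Without control replicate 2 the change was −1.45 for Atg5 KO (limma adjusted p = 0.0163) and −1.20 for Atg7 KO cells (adjusted p = 0.0425). For Fip200 KO the adjusted p ran from 0.0191 to 0.495 over the alternatives, with 0.0470 without Fip200 KO replicate 3 and 0.231, 0.352 and 0.495 without control replicates 1, 2 and 3. Without control replicate 3 the Atg7 KO change was −0.97, short of the fold threshold. Over all alternatives the Atg7 KO change ran from −1.20 to −0.41, with limma adjusted p from 0.0150 to 0.857. For Atg5 KO cells the adjusted p ran from 0.00808 to 0.151. Gm46215 and Gm18511 overlap Sgk1 in the RefSeq annotation.

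Members whose 3 KO libraries were all below the 3 control libraries numbered 4 in Fip200 KO cells (Junb, Jund, Nr4a1 and Sgk1), against 12.4% of tested genes, while 0 were all above, against 11.7%. In Atg5 KO and Atg7 KO cells 3 members were all below (Jund, Nr4a1 and Sgk1), against 22.0% and 20.4% of tested genes, and 0 were all above, against 28.4% and 19.2%. For both of these groups, 3 of 10 is close to the share over all genes. For single genes, the exact permutation test (two-sided, 3 against 3) gave p = 0.1 for Jund, Nr4a1 and Sgk1 in each comparison, the smallest value that this design allows.

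The KO groups were also compared with each other, in 1 fit of all 12 libraries. No member was called by limma in any of the 3 pairs, and neither was any other of 12233 tested genes (0.0% in Atg5 KO against Fip200 KO, 0.0% in Atg7 KO against Fip200 KO and 0.0% in Atg7 KO against Atg5 KO cells). An unadjusted p under 0.05 was reached by 927, 916 and 562 genes. Among members, this held for 1, Fosb in Atg7 KO against Fip200 KO cells, with a log2 fold change of 1.93 (95% interval 0.02 to 3.85, limma adjusted p = 0.664). For Atg5 KO against Fip200 KO cells the log2 fold changes of Fosb and Fos were 1.82 (−0.09 to 3.74) and 1.28 (−0.20 to 2.77), with limma adjusted p of 0.654 and 0.655. The Fos libraries of Atg5 KO cells were all above those of Fip200 KO cells. The log2 fold change of Fosl2 for Atg7 KO against Atg5 KO cells was −0.57, without overlap (interval −1.30 to 0.16, limma adjusted p = 1.00). For the members called against control, the log2 differences between KO groups are given as ranges. Those of Jund were −0.31 to 0.02, of Sgk1 0.25 to 0.54, of Junb 0.06 to 0.20 and of Nr4a1 −0.46 to 0.76. The widest intervals were those of Nr4a1, at −0.60 to 2.11 for Atg5 KO against Fip200 KO cells and −1.82 to 0.90 for Atg7 KO against Atg5 KO cells. A p that misses the threshold does not show that these KO cells are alike.

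Single libraries carried much of the spread. Control replicate 1 was the lowest control library for 7 of 10 members, against 35.8% of all 11891 genes with a mean of at least 0.5 RPKM, and Atg5 KO replicate 3 was the lowest of its group for 8, against 42.8%. Atg7 KO replicate 3 was the highest of its group for 9 of 10 members, all but Fosl1, against 30.5% of all genes. The same libraries stood out for 26 other immediate early genes. Control replicate 1 was the lowest of control for 18 of them, Atg5 KO replicate 3 the lowest for 16 and Atg7 KO replicate 3 the highest for 18. Control replicate 1 had 18960455 reads and Atg7 KO replicate 3 had 20403430, both inside the range of the other libraries. The control library with the lowest Fos and Egr1 was also the one with the least fibroblast RNA, and the 2 with high levels had the most. Within KO groups the order varied. Fip200 KO replicate 2 and Atg5 KO replicate 3 had the most summed fibroblast markers of their groups (37.8 and 37.4 RPKM) and the lowest Fos. Atg7 KO replicate 2, with the least (2.64), had the lowest Fos and Egr1 of its group. Atg7 KO replicate 3, with the highest Egr1, had 15.7. A link between these levels was not tested.

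**Figure D3:**
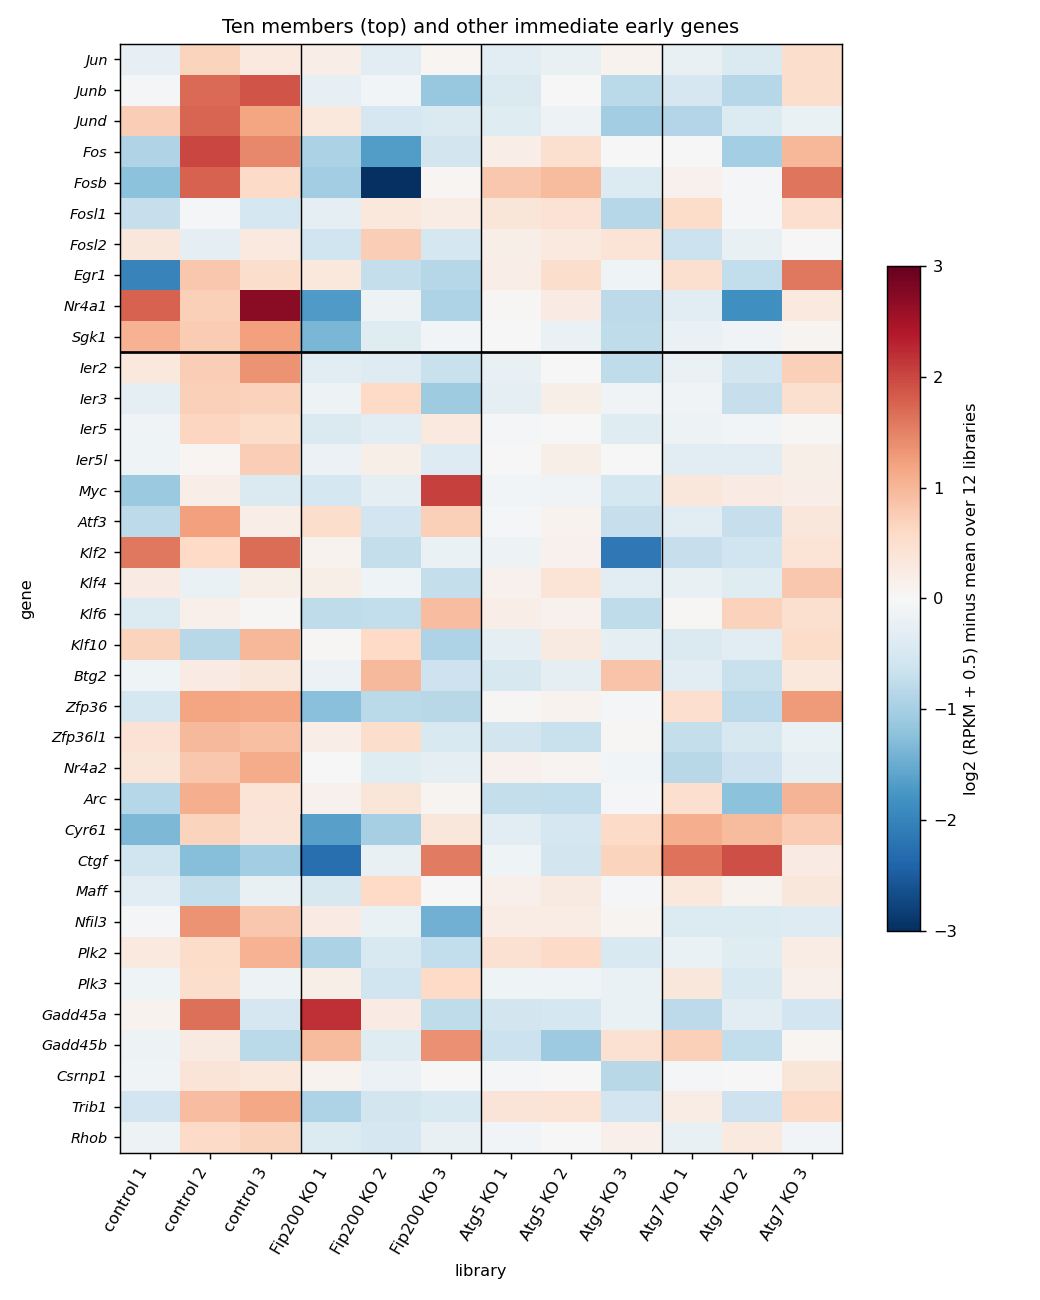
Log2 of RPKM plus 0.5 minus its mean over the 12 libraries for the 10 members (above the line) and 26 other immediate early genes (below), with columns for libraries and vertical lines between groups. Red is above and blue below the mean, and Fos, Fosb and Egr1 are blue in control 1 and red in control 2, control 3 and Atg7 KO 3.

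Library names in the labels carry 3 prefixes, whose meaning is not given. Control replicate 1 and the Fip200 KO libraries share FY, control replicates 2 and 3 and Atg5 KO replicates 1 and 2 share JG, and the other KO libraries share Yang, which has no control. Within FY, Nr4a1 and Sgk1 had differences of −2.69 and −1.64 log2 units, near those over all libraries. Jund had −0.95 and Junb −0.43, while Fos moved from −1.90 to −0.15, Fosb from −1.74 to −0.14, and Egr1 from −0.20 to 1.59. That side of the comparison rests on 1 control library and has no test. Within JG, with 2 libraries a side, Junb had −2.01, Jund −1.72, Nr4a1 −1.57, Fos −1.38 and Sgk1 −1.10, while the other 5 members ran from −0.75 (Jun) to 0.69 (Fosl1). The 2 Atg5 KO libraries of JG differed least of all pairs within a group. Chi-square of reads per gene was 8.7 for them and 51.6 to 317 for the other pairs within groups. Whether this closeness narrowed the spread behind the Atg5 KO calls was not tested. With the prefix as a term over all 12 libraries, limma called Junb and Jund in Atg5 KO cells and 0 members in Fip200 KO and Atg7 KO cells. In Atg7 KO cells prefix and KO are linked to control only through the 1 Atg5 KO library named Yang.

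**Figure D4:**
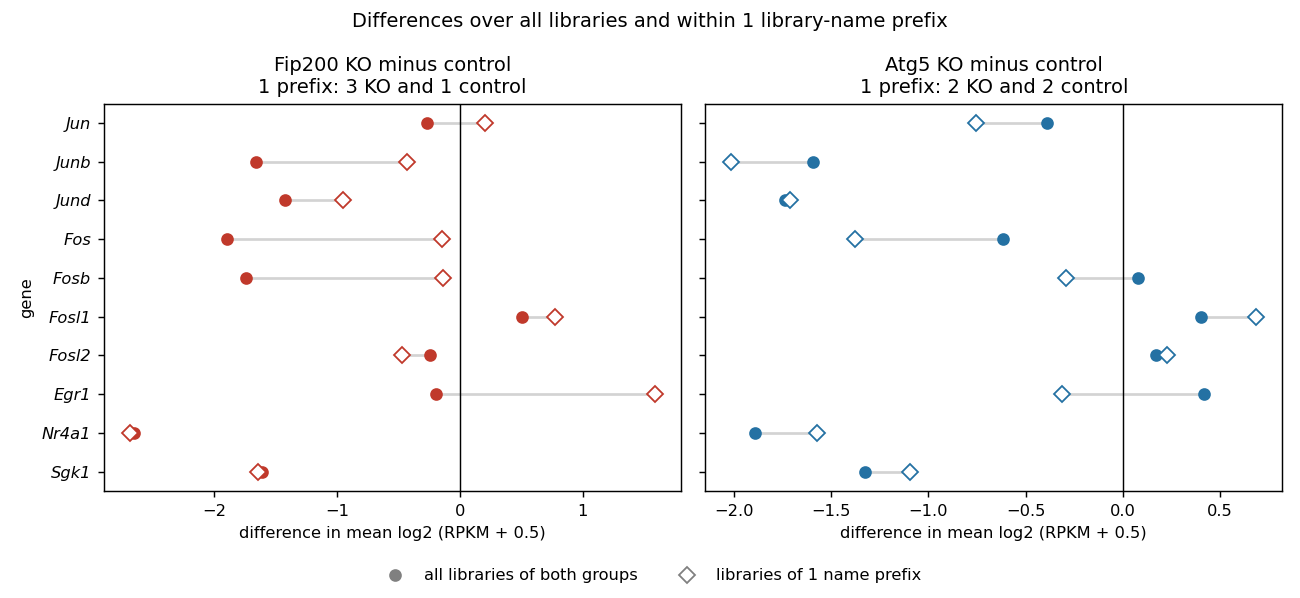
Difference in mean log2 of RPKM plus 0.5 between KO and control for each gene, over all libraries (filled circles) and within 1 library-name prefix (open diamonds), for Fip200 KO and Atg5 KO cells. Nr4a1 and Sgk1 hardly move in Fip200 KO cells, where Fos, Fosb and Junb move towards 0 and Egr1 crosses to 1.59.

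A list of 30 other immediate early genes was read in the same way. Of these, 26 were tested, and 1 was called lower in Fip200 KO (Plk2), 3 in Atg5 KO (Zfp36l1, Ier2 and Klf2) and 4 in Atg7 KO cells (Zfp36l1, Klf2, Nfil3 and Nr4a2), while Ctgf was called higher in Atg7 KO cells. Beside these counts and those of the lists that follow stand the shares over all tested genes, 1.64%, 6.94% and 6.81% called lower and 0.347%, 4.31% and 3.29% called higher. Plk2, Nfil3 and Nr4a2 are named after their values were seen. The median log2 fold change of the list was −0.36, −0.43 and −0.37 in the 3 KO groups (Fip200, Atg5 and Atg7 in that order), with 20, 21 and 19 genes below 0. Klf2, the flow-responsive endothelial factor, averaged 173 RPKM in control, 49.4 for Atg5 KO and 58.0 for Atg7 KO cells, a log2 fold change of −2.01 and −1.58 (limma adjusted p = 0.0483 and 0.0389). Zfp36l1, which promotes decay of short-lived mRNAs, changed by −1.17 and −1.23 in the same cells (adjusted p = 0.0130 and 0.0177). Ctgf, a target of YAP and SRF, rose from a mean of 49.2 to 258 RPKM in Atg7 KO cells (log2 fold change 2.24, limma adjusted p = 0.0229).

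Genes upstream of the members were read next. Of 12 SRF, ternary complex and CREB factors, all tested, Srf itself was called higher in Atg7 KO cells (1.24, limma adjusted p = 0.0145) and no other call was made. Among 25 tested MAP kinases and their kinases, Mapk12 was called higher in Atg5 KO (1.34) and Atg7 KO cells (1.09), and Map2k6, which activates p38, lower in Atg7 KO cells (−1.23). In Atg5 KO and Atg7 KO cells 1 of 25 called higher is near the shares of 4.31% and 3.29% over all genes. The medians of these kinases were 0.07, 0.09 and 0.01, near those of all genes. Feedback inhibitors, themselves transcribed when MAP kinases are active, had medians of −0.11, −0.46 and −0.55 over 17 tested genes. Dusp4, a nuclear MAP kinase phosphatase, was called lower in Atg5 KO (−1.98, limma adjusted p = 0.00372) and Atg7 KO cells (−1.69, adjusted p = 0.00929), and Dusp14 lower in Atg5 KO cells (−1.23). Dusp5, which acts on nuclear ERK, was called higher in both (1.08 and 1.34). Among tested bZIP genes that can pair with AP-1 proteins, Ddit3 was called lower and Maf higher in Atg5 KO cells. In Fip200 KO cells no gene of these 4 lists was called by limma.

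Of 22 genes known as AP-1 targets, 18 were tested. Among these, 5 were called lower in Atg5 KO (Il6, Mmp13, Ptgs2, Spp1 and Vegfa) and 5 in Atg7 KO cells (Mmp13, Ptgs2, Spp1, Tgfb1 and Vegfa), while Ccnd1 was called higher in Atg7 KO cells. For Fip200 KO, limma called 0 of the 18, and Spp1 had a log2 fold change of −2.46 (limma adjusted p = 0.305). The study's own test, on counts of the same libraries, passed Spp1 and Ptgs2 as lower in Fip200 KO cells. Its RT-qPCR also gave less Spp1 RNA in these cells. Over all tested genes 6.94% and 6.81% were called lower. Il6, Tgfb1 and Ccnd1 are named after their values were seen. The list's medians, over its 18 tested genes, were −0.55, −0.65 and −0.49 in the 3 KO groups. Areg, Lif, Mmp10 and Mmp9 did not pass the filter on low values and were not tested. In control libraries Areg ran from 0 to 13.4 RPKM, Lif from 0.365 to 14.4 and Mmp10 from 0 to 5.31. The KO group means of these genes were at most 0.140 RPKM. Mmp9 averaged at most 0.112 RPKM in every group. Spp1, which encodes osteopontin, ranged from 59.4 to 1370 RPKM in control and from 5.79 to 13.9 for Atg5 KO cells, a log2 fold change of −4.50 (limma adjusted p = 0.0234). In Atg7 KO cells it was −4.77 (adjusted p = 0.0296). Ptgs2, the inducible cyclooxygenase, averaged 513 RPKM in control and 44.5 for Atg5 KO cells (−3.25, limma adjusted p = 0.00680). Vegfa, the endothelial growth factor, changed by −1.26 in Atg5 KO and by −1.20 in Atg7 KO cells, and Mmp13, a collagenase, by −1.44 and −2.06. Spp1 and Ptgs2 were highest in control replicate 2, the library with most fibroblast RNA, and Spp1 in control replicates 1 and 3, at 59.4 and 127 RPKM, was above all 9 KO libraries.

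Of 14 tested kinases, substrates and partners around Sgk1, 1 was called lower and 1 higher in Atg5 KO cells (Ndrg2 and Sgk2), and 1 lower in Atg7 KO cells (Ndrg1), with medians of 0.19, 0.04 and −0.07. In both groups 1 of 14 called lower is near the shares of 6.94% and 6.81% over all genes. Ndrg1 and Ndrg2, substrates of the kinase, had log2 fold changes of −1.38 for Atg7 KO and −1.38 for Atg5 KO cells (limma adjusted p = 0.0186 and 0.00478). For Fip200 KO cells these genes changed by −0.34 and 0.20 (limma adjusted p = 0.725 and 0.915). The glucocorticoid response list, which holds Sgk1 itself among its 9 tested genes, had 3 genes called lower in Atg5 KO cells and 2 in Atg7 KO cells. Besides Sgk1 these were Tsc22d3, the leucine zipper gene known as Gilz, in both (−1.30 and −1.33, limma adjusted p = 0.00419 and 0.0125), and Klf9 in Atg5 KO cells (−1.12). The medians of this list were −0.11, −0.50 and −0.70, with 5, 5 and 8 of 9 genes below 0. Fkbp5, Mt1 and Mt2, named after their values were seen, were not called. Fkbp5 changed by 0.04, 0.27 and −0.10. In Fip200 KO cells Mt1 and Mt2 changed by 1.07 and 1.84 (limma adjusted p = 0.150 and 0.122). In Fip200 KO cells 0 genes of both lists were called by limma, and the smallest adjusted p was that of Sgk1.

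Genes whose level followed a member most closely were sought among 8254 genes with a mean of at least 5 RPKM, by Pearson's r of log2 levels over the 12 libraries, which share controls and culture history. For Junb these were Ier2 (0.930), Dusp1 (0.924) and Prl2c2 (0.917), the first an immediate early gene and the second a MAP kinase phosphatase with early induction. For Fos they were Zfp36 (0.914), Trib1 (0.905) and Nusap1 (0.873), and for Fosb Mis18a, Lig1 and Ppp1r15a (0.875 to 0.891). Jund was most like Arhgef3 (0.969), Ndufa13 and Ift43, Nr4a1 like Dapk1 (0.937), Adgre5 and Homer3, and Sgk1 like Rab8a (0.953), Smarca5 and Agtpbp1. Jun (Cdkn2d, Cox19 and Irf2bp2), Fosl1 (Qars, Phldb1 and Rnf123), Fosl2 (Spred3, Fis1 and Znhit1) and Egr1 (Ccdc34, 2310022A10Rik and Dctn5) had r between 0.765 and 0.908. With so many genes searched over 12 libraries, values of this size describe these libraries only.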

How the data were processed

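RNA was measured in 12 libraries of 562 cells, made with a directional kit from total RNA. The authors trimmed adapters, aligned reads with TopHat2, counted them on known transcripts and compared groups with edgeR. Versions, genome build, annotation and use of strand are not given in the sources used here. They deposited 1 table per KO against control. The authors deposited RPKM values per library, a unit read from whole-number ratios between libraries, and group means that are a signal of reads over size factors. The deposited tables also hold the authors' fold changes and p-values, which were not used. Columns that match no sample numbered 0.

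Whole reads behind the RPKM were recovered for 14851 of 14851 genes. They served only for depth, read counts and the chi-square between libraries of a group. A count test was not used because the deposited unit is RPKM. Genes with at least 0.5 RPKM in at least 3 compared libraries were tested with limma 3.58.1 (R 4.3.3) on log2 of RPKM plus 0.5, with a variance trend, 6 libraries for each KO against control and 12 for KO against KO, with Benjamini-Hochberg adjustment over all tested genes. A fold change on this scale understates the change of low genes. The members and the lists were chosen with earlier results of these data known. Named genes were all members, at most 4 per list (called most often, then largest mean change, or the 2 most abundant where none was called) and the 3 genes most like each member. The test was also run on simulated data, whose outcome is not given here. Intervals are 95% intervals of the moderated test. Alternatives were other pseudocounts, filters and scaling, no trend, pooled fits, prefix and replicate terms and leaving out each library. Promoters came from RefSeq. Protein sequences were not used here. The result of 1 listed gene is not reported here. Python 3.11.15, pandas 2.3.3, scipy 1.17.1, numpy 2.4.6 and matplotlib 3.10.9 were used.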

Additional observations from a re-analysis of the deposited data

How the results depend on the processing

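In Atg5 KO cells 4 members were called, 3 to 5 when 1 library was left out and 2 once the prefix was a term. In Atg7 KO cells 3 were called, 1 to 3 when 1 library was left out and 0 with the prefix term. In Fip200 KO cells 0 were called, 0 to 2 when 1 library was left out, 1 with median-of-ratios scaling (Sgk1), 4 with all 12 libraries in 1 fit (Junb, Jund, Nr4a1 and Sgk1) and 2 (Nr4a1 and Sgk1) at an adjusted p of at most 0.11, an alternative chosen after seeing the data. The 2 called members without control replicate 1 were Fos and Junb, and without Fip200 KO replicate 3 they were Nr4a1 and Sgk1. The cause of these differences was not tested. Other pseudocounts (0.1 and 1), filters (none and 1 RPKM) and the fit without a trend left all 3 counts as they were. No count between KO groups moved from 0.

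Replicate numbers were no pairing, since correlations between libraries of 1 number ran from −0.496 to 0.252. With the replicate block, 0, 4 and 3 members were called (Fip200, Atg5 and Atg7 in that order) and 0 between KO groups.

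Signs turned only for log2 fold changes that were not called. With the prefix term, Jun and Egr1 in Fip200 KO cells were 0.21 and 1.59, Fosb and Egr1 in Atg5 KO cells −0.29 and −0.31, Fos and Fosb in Atg5 KO against Fip200 KO −1.23 and −0.16, and Fos −1.23 in Atg7 KO against Fip200 KO and 0.0017 in Atg7 KO against Atg5 KO. Leaving out 1 library, Egr1 ran from −1.09 to 0.32 in Fip200 KO, −0.47 to 0.93 in Atg5 KO and −0.23 to 1.26 in Atg7 KO cells. Fosb ran from −0.72 to 0.77 in Atg5 KO, −0.61 to 0.89 in Atg7 KO and −0.41 to 0.41 in Atg7 KO against Atg5 KO cells, Fos from −0.73 to 0.28 in the last pair, and Fosl2 from −0.035 to 0.29 in Atg5 KO cells. Every member had at least 71 reads in every library, and each group had 3 libraries.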
